A study of Nicotiana tabacum with 9 samples.

Results

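Glutathione S-transferases were followed across young leaves of *Nicotiana tabacum* (tobacco) of 3 genotypes. The genes were taken by their deposited descriptions: 128 genes of the 69500 in the expression table named a glutathione S-transferase domain, and 87 of them reached a value of 1 or more in at least 3 of the 9 libraries. These 87 genes are described here. Paired-end libraries were made from total RNA of young leaf at the squaring period (flower bud formation), in a study of how NtAN3 acts on leaf size. Each genotype, that is NC82, M21 and G27, had 3 libraries. NC82 is a cultivar of flue-cured tobacco and served as the reference. The labels give no treatment and no plant age. They do not say which change of NtAN3 M21 or G27 carries or whether each is 1 transgenic event. Nothing says that the 3 replicates of a genotype came from different plants. The spread behind each p-value is thus that between these libraries, and it may be technical.

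Glutathione S-transferases join the tripeptide glutathione to electrophilic compounds, and in plants they are known for detoxifying herbicides and for responding to stress and defence signals. The enzyme has an N-terminal domain with a thioredoxin-like fold, which binds glutathione, and a helical C-terminal domain, which binds the second substrate. Most plant members belong to the tau and phi classes, whose genes often lie side by side in clusters. The zeta class is maleylacetoacetate isomerase, an enzyme of tyrosine breakdown. The same domains also occur in proteins that are not detoxifying enzymes, among them subunits of elongation factor 1B, which recharges the elongation factor that brings aminoacyl-tRNA to the ribosome.

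By the words of their descriptions, 71 of the 87 genes were grouped as the transferase type. Of these, 59 named both domains, 3 only the N-terminal domain, 6 only the C-terminal domain and 3 maleylacetoacetate isomerase. A C-terminal-like domain was counted as the C-terminal domain. Nitab4.5_0000074g0040 named nothing else, so its description alone does not show it to be a transferase. The other 16 went against the name of the family: 9 were elongation factor 1B genes, 3 tRNA synthetases, 2 carried a tRNA-binding domain and 2 a glutaredoxin domain. The descriptions did not separate tau from phi genes, and 1 gene with both domains, Nitab4.5_0001288g0070, also named pentatricopeptide repeats. No gene name was given for any gene, so genes are named by identifier.

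The leaf label was checked against marker genes. RuBisCO small chain genes made up 5.248% to 5.995% of the summed value per library, chlorophyll A-B binding proteins 4.008% to 4.925% and photosystem I or II 6.967% to 7.908%. Genes whose descriptions held words fixed for other organs were summed as well. They made up 0.2103% to 0.2449% for pollen allergen or Ole e 1, 0.0303% to 0.0372% for MADS-box and 0.656% to 0.695% for seed storage or vicilin. Each of these ranges covers the 9 libraries. The words were matched anywhere in a description, so these genes need not be particular to those organs, and their sums do not measure other tissue. All values are normalized expression in the authors' unit, which is scaled for depth and not named as TPM or FPKM. Read counts are not in the table, so no counting error can be given. In bulk leaf RNA, fewer cells of a type and less RNA per cell cannot be told apart. Libraries of each genotype were spread along the third principal component, which held 11.6% of the variance. NC82 replicate 1, M21 replicate 3 and G27 replicate 1 were at its high end (22.9, 16.0 and 21.2), and are called the high-end libraries here. Replicate 2 of M21 and of G27 and replicate 3 of NC82 were at its low end (-17.3, -18.9 and -14.2).

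Most of the family was expressed at a moderate level, and a few genes carried much of it. Means over the 9 libraries ran from 0.813 to 201.6 among the 87 genes, with a median of 11.91, and reached 145.2 among the 71 transferase-type genes. The highest 3 of the latter held 23.4% of the summed level and the highest 10 held 58.7%. Of the 87 genes, 76 were at 1 or more in all 9 libraries. The 41 described genes below the level rule included 10 at 0 in every library, and their highest single value was 1.41. No gene sat exactly at 3 libraries. Just inside the rule were Nitab4.5_0000892g0010 and Nitab4.5_0004704g0060, each at 1 or more in 4 libraries. The latter stood at 0.34, 0.5 and 0.93 in NC82, 1.42, 0.85 and 1.26 in M21, and 0.74, 1.04 and 1.45 in G27. Just outside was Nitab4.5_0000385g0220, at 0.1, 0.17 and 0.11 in NC82, 0.51, 1.03 and 1.25 in M21, and 0.37, 0.57 and 0.27 in G27. A mean under 1 in NC82 was found for 6 of the 87 genes, which passed the rule through M21 or G27. Of these, 5 were called up in each line, which the rule favours. All 6 are of the transferase type.

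**Figure D1:**
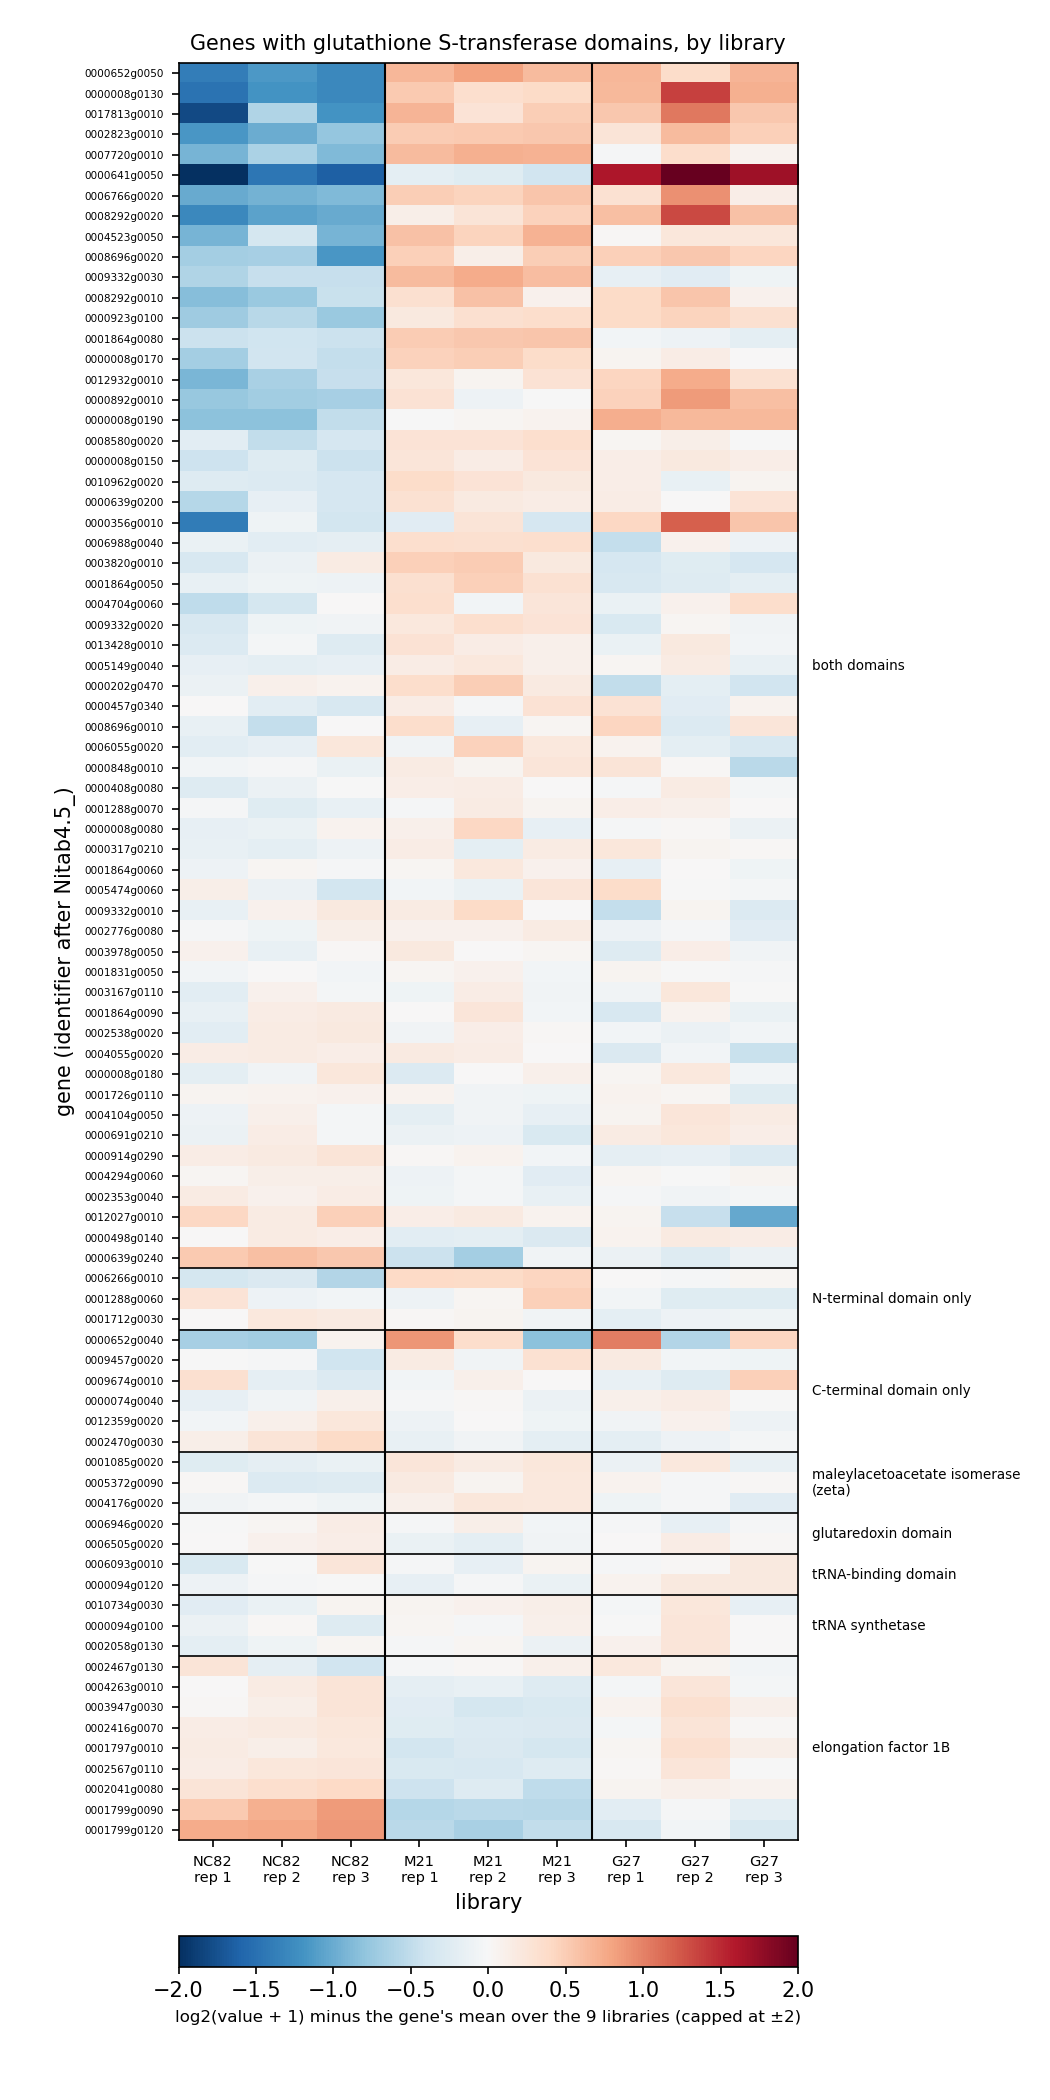
Each row is 1 of the 87 genes and each column 1 of the 9 libraries, with color giving log2(value + 1) minus the gene's mean over all libraries, capped at 2 in either direction. Rows are grouped by description and ordered within a group by the change in M21. Red blocks at the top right are transferase-type genes above their mean in M21 and G27, and blue blocks at the bottom center are elongation factor 1B genes below their mean in M21.

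The transferase-type genes as a sum stood higher in M21 than in NC82. They made up 0.2059%, 0.2217% and 0.2231% of the summed value in the NC82 libraries, 0.254%, 0.2687% and 0.2473% in M21, and 0.2163%, 0.2415% and 0.2236% in G27. The M21 libraries did not overlap with either other group, and G27 overlapped with NC82. The elongation factor 1B genes went the other way in M21, so that all 87 genes together held similar shares, with means of 0.3411% in NC82, 0.343% in M21 and 0.3378% in G27. The rise was not shared by every description of the transferase type. In NC82, M21 and G27, in this order, the 59 genes with both domains had mean sums of 1411.0, 1752.8 and 1525.2. The 3 zeta genes had 43.4, 54.4 and 45.4. For the 6 genes with only the C-terminal domain they were lower in both lines, at 149.8, 126.2 and 128.9. So were those of the 3 with only the N-terminal domain, at 94.7, 88.8 and 79.4. None of these sums was tested.

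M21 against NC82 asked how the family differs between this line and the cultivar. Changes are log2 fold changes of value + 1, which understate the change of genes at low values. A gene is called at a limma adjusted p under 0.05, adjusted over all 33188 genes tested. In this comparison 24.3% of all tested genes were called, with 13% up and 11.3% down. Of the 71 transferase-type genes, 33 rose and 5 fell, so 53.5% were called. Of the 65 with a mean of 1 or more in NC82, a split chosen after seeing the data, 28 rose and 5 fell. Over the 71, the median log2 change was 0.31, against 0.03 over all tested genes. Among them 12 rose by a log2 change of 1 or more, a size that 1.9% of all tested genes reached upwards, and none fell as far. M21 and NC82 ranges were apart for 42 of the 71, against 40.3% of all tested genes. Of the 33 that rose, 29 named both domains, 3 were zeta genes and 1 named only the N-terminal domain. Of the 6 genes with only the C-terminal domain 0 rose. Over all 87 genes 33 rose and 13 fell, and 8 of the 13 that fell were elongation factor 1B genes. Of the 13, 2 fell by a log2 change of 1 or more, a size that 0.871% of all tested genes reached downwards.

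The largest rise in M21 was that of Nitab4.5_0000652g0050, which has both domains. It stood at 1.4, 1.83 and 1.57 in NC82 and at 8.97, 10.01 and 8.77 in M21. Its values in G27 were 8.91, 7.08 and 9.03, so every library of either line lay above every NC82 library. The log2 change was 1.98 (SE 0.11) in M21 and 1.84 in G27 (limma adjusted p = 1.07e-06 and 2.31e-06). Next came Nitab4.5_0000008g0130, another gene with both domains, at 1.71, 2.3 and 2.1 in NC82 and 9.88, 8.59 and 8.83 in M21. In G27 it stood at 10.88, 18.61 and 11.43, with replicate 2 well above the others. It rose by a log2 change of 1.74 (SE 0.17) in M21 and by 2.24 in G27 (limma adjusted p = 3.98e-05 and 1.05e-05).

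Further genes with both domains rose to much the same level in M21 and G27. Nitab4.5_0002823g0010 stood at 5.43, 6.31 and 7.46 in NC82, 19.52, 19.88 and 20.03 in M21, and 16.22, 21.38 and 19.2 in G27. Its 3 M21 values lay close together, and its log2 change was 1.5 (SE 0.11) in M21 and 1.43 in G27 (limma adjusted p = 8.69e-06 and 1.53e-05). Nitab4.5_0006766g0020 stood at 7.5, 7.88 and 8.26 in NC82, 22.99, 22.27 and 24.06 in M21, and 20.23, 31.2 and 17.74 in G27, with changes of 1.44 and 1.40. Nitab4.5_0017813g0010 stood at 1.64, 5.07 and 3.04 in NC82, 13.79, 10.16 and 11.96 in M21, and 12.43, 18.2 and 12.33 in G27. NC82 was the most scattered group for this gene, and the changes were 1.68 (SE 0.26) and 1.91 (limma adjusted p = 0.00079 and 0.000477). None of these 3 genes was called between M21 and G27, with differences of 0.04 to 0.07 and -0.23.

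**Figure D2:**
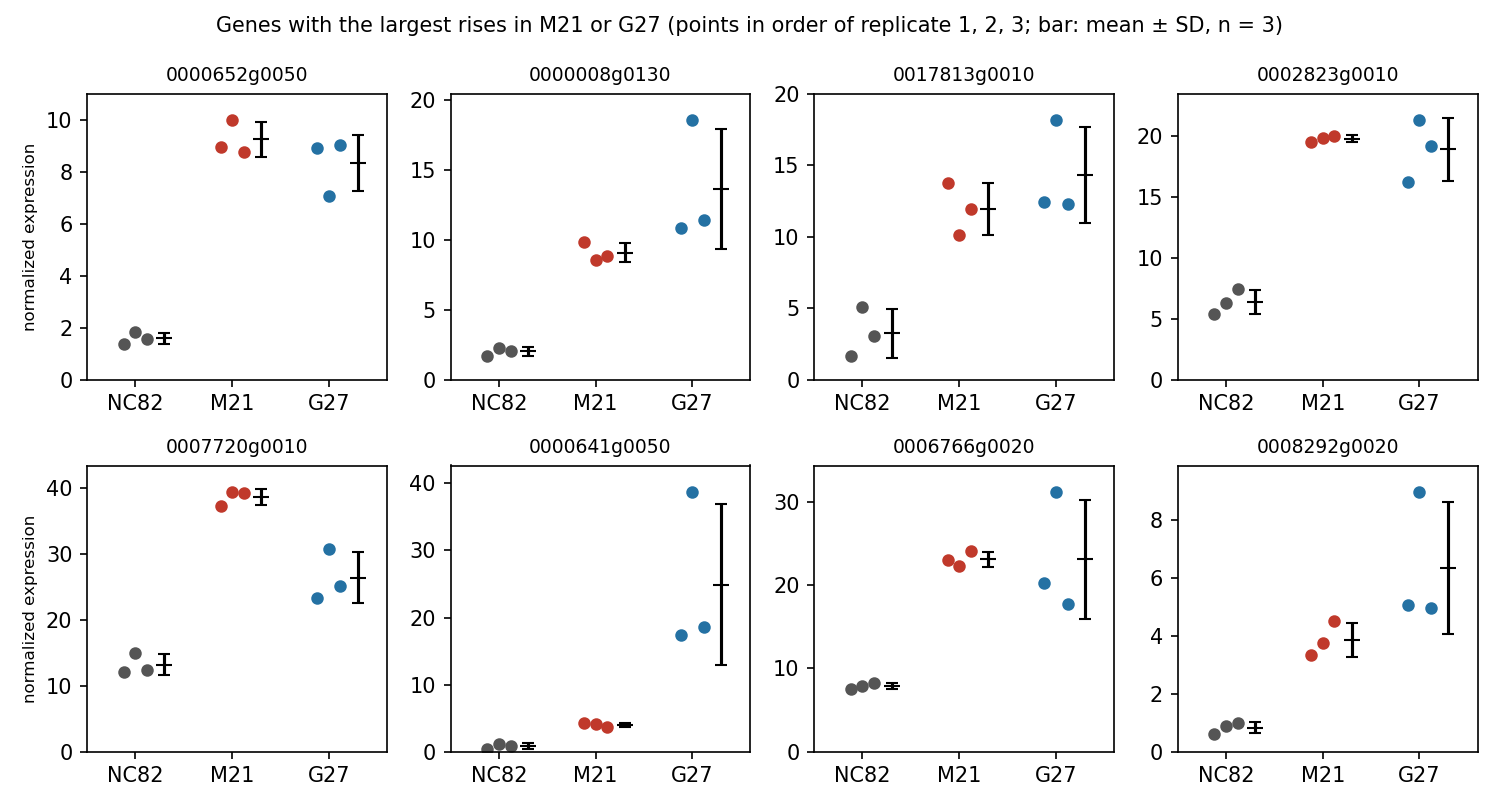
Normalized expression (y axis, starting at 0 in each panel) of the genes with the largest rises in M21 or G27, by genotype. Colored points are replicates 1, 2 and 3 from left to right and the bar is the mean ± SD of 3 libraries. All M21 and G27 points lie above all NC82 points in these panels, and G27 replicate 2 is the highest point in most of them.

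G27 replicate 2 often had the highest value among the G27 libraries. Of the 24 transferase-type genes called up in G27, replicate 2 was the highest G27 library in 17, replicate 1 in 3 and replicate 3 in 4. Over all 71 transferase-type genes it was highest in 41. How often it was the highest over all tested genes was not counted. Without replicate 2, 21 of the 71 rose and 5 fell in G27 against NC82, the same counts as without replicate 1, and without replicate 3 the counts were 22 and 3. Of all tested genes 2612 rose and 2008 fell with every library kept. These counts were 2170 and 1864 without replicate 2, 1973 and 1792 without replicate 1, and 2244 and 1447 without replicate 3. In M21 the highest library was replicate 1 for 8, replicate 2 for 11 and replicate 3 for 14 of the 33 genes that rose.

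G27 was set against the NC82 libraries that also served the M21 comparison. In this comparison 13.9% of all tested genes were called, 7.87% up and 6.05% down. Of the 71 transferase-type genes 24 rose and 7 fell, which is 43.7% called. Of the 65 with a mean of 1 or more in NC82, 19 rose and 7 fell. Over the 71, the median log2 change was 0.17 against 0.05 over all tested genes. A log2 rise of 1 or more was found for 14, a size reached upwards by 1.52% of all tested genes. Ranges did not overlap for 36 of the 71, against 30.6% of all tested genes. Of the 24 that rose, 23 named both domains and 1 only the N-terminal domain. Of the 6 genes with only the C-terminal domain 0 rose, as did 0 of the 3 zeta genes. Over all 87 genes, 24 rose and 10 fell. Of the 10, 1 fell by a log2 change of 1 or more, as did 0.696% of all tested genes.

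The largest rise in G27 was that of Nitab4.5_0000641g0050, again with both domains. It stood at 0.38, 1.23 and 0.94 in NC82, at 4.28, 4.1 and 3.65 in M21 and at 17.46, 38.78 and 18.55 in G27. The 3 groups did not overlap, and G27 was the highest. The log2 change was 3.74 (SE 0.26) in G27 and 1.46 in M21 (limma adjusted p = 7.43e-06 and 0.00216). The difference of M21 from G27 was -2.28 (limma adjusted p = 0.000507). With a pseudocount of 0.1 in place of 1 the M21 change was 2.23. The NC82 mean was 0.85, and the level rule, which the gene passed through M21 and G27, favours these rises.

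Nitab4.5_0008292g0020 was also higher in both lines, at 0.63, 0.89 and 0.99 in NC82, 3.34, 3.77 and 4.51 in M21, and 5.08, 8.99 and 4.98 in G27. Its log2 change was 1.96 (SE 0.18) in G27 and 1.41 in M21 (limma adjusted p = 4.31e-05 and 0.000309). Every NC82 value was under 1, so the gene passed the level rule only through M21 and G27, and the rule favours these calls. The G27 mean was the higher of the lines, but the difference of -0.56 was not called (limma adjusted p = 0.0796). Nitab4.5_0000356g0010 was the 1 gene called up in G27 and not called in M21. It is named because of that count and was chosen after its values were seen. It stood at 3.94, 11.14 and 9.04 in NC82, 10.06, 14.44 and 9.22 in M21, and 16.3, 28.57 and 18.09 in G27. The change of 1.34 (limma adjusted p = 0.0138) was lost without G27 replicate 2 (limma adjusted p = 0.0528).

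Set side by side, 23 transferase-type genes were called up in both lines, a pattern that 5.6% of all tested genes showed. Called up in M21 and not called in G27 were 9, and 28 were called in neither. The shares of all tested genes with these last patterns were not counted. Of the 6 genes with a mean under 1 in NC82, 5 were called up in each line, which the level rule favours. Both lines were compared with the same NC82 libraries, so these calls are not independent. Among the 23, the mean was higher in M21 for 13 and in G27 for 10. Between the lines 5 of the 23 were called higher in M21, 3 lower and 15 were not called. Of all tested genes, 5.47% were called higher in M21 than in G27 and 6.4% lower.

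**Figure D3:**
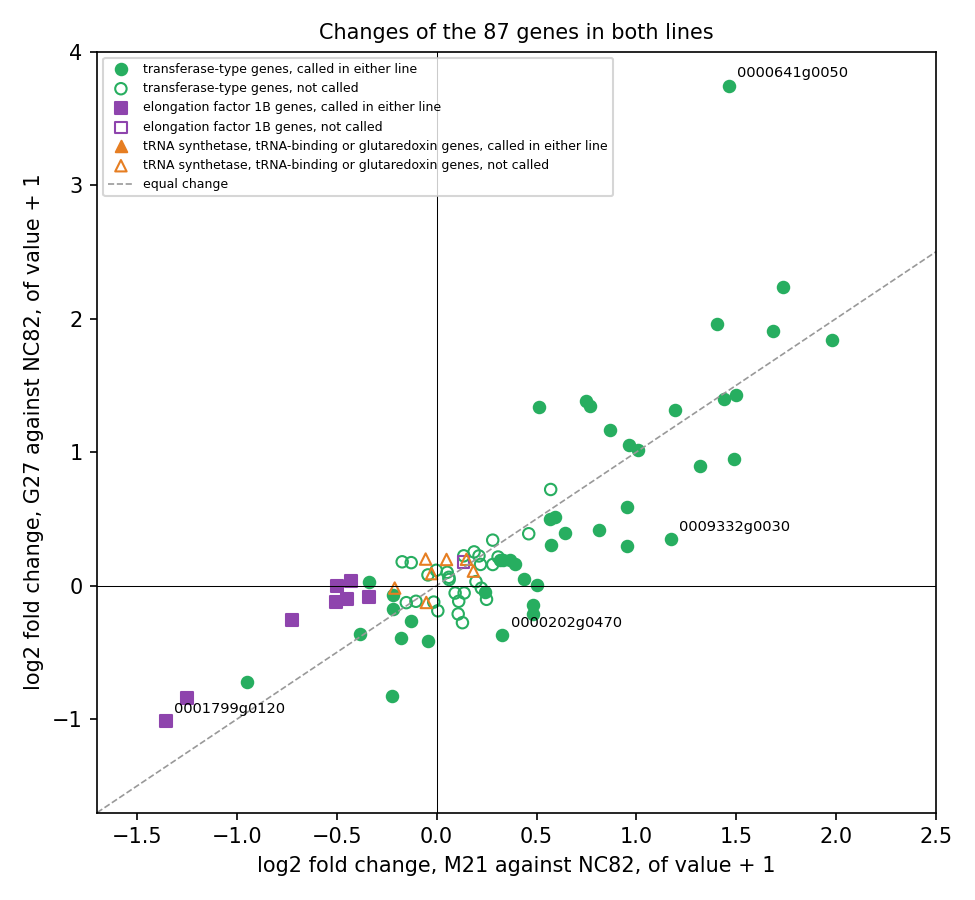
Log2 fold change of value + 1 against NC82 in M21 (x axis) and in G27 (y axis) for the 87 genes. Filled symbols were called in either line, open symbols in neither, circles are transferase-type genes, squares elongation factor 1B genes and triangles the other descriptions. The topmost point is Nitab4.5_0000641g0050 at 1.46 and 3.74, and the 2 lowest squares are at -1.35 and -1.25 on the x axis. Both axes share the NC82 libraries.

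Rises were not limited to genes at low values. Of the 36 transferase-type genes with a mean of 10 or more, 16 rose and 5 fell in M21, and 9 rose and 6 fell in G27. Of all tested genes, at any level, 13% rose and 11.3% fell in M21, and 7.87% rose and 6.05% fell in G27. The median log2 change of the 36 was 0.20 in M21 and 0.05 in G27, against 0.03 and 0.05 over all tested genes. Of the 35 transferase-type genes with a mean under 10, 17 rose and 0 fell in M21, and 15 rose and 1 fell in G27. Their median changes were 0.46 in M21 and 0.30 in G27. The 35 include the 6 with a mean under 1 in NC82, which passed the level rule through M21 or G27. Of these 6, 5 were called up in each line, which the rule favours. At an unadjusted limma p under 0.05, 0 of these 35 were lower in M21 as well.

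Some abundant genes rose further in M21 than in G27. Nitab4.5_0009332g0030 stood at 75.03, 83.2 and 83 in NC82, 178.1, 193.3 and 176.6 in M21, and 102.5, 97.56 and 108.0 in G27. The 3 groups did not overlap, with G27 between the others. Its log2 change was 1.17 (SE 0.07) in M21 and 0.35 in G27 (limma adjusted p = 1.97e-06 and 0.00654), and M21 was higher than G27 by 0.82 (limma adjusted p = 0.000118). The G27 call was lost with median-ratio scaling of the libraries (limma adjusted p = 0.0537). Nitab4.5_0001864g0080 followed the same order, at 37.02, 38.09 and 37.24 in NC82, 72.36, 73.4 and 74.82 in M21, and 48.53, 46.82 and 43.75 in G27. It rose by 0.95 in M21 and by 0.30 in G27 (limma adjusted p = 3.39e-06 and 0.00743), the latter lost without the 3 high-end libraries (limma adjusted p = 0.0542).

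Of the other transferase-type genes among the 8 highest means, 1 was called up in M21 and not in G27, 3 were not called and 1 fell. Nitab4.5_0001864g0050 stood at 125.4, 130.2 and 129.3 in NC82, 173.9, 194.0 and 171.5 in M21, and 111.0, 116.4 and 121.1 in G27. M21 was above the other groups, with a change of 0.48 against NC82 (limma adjusted p = 0.000444) and a difference of 0.62 from G27 (limma adjusted p = 0.000384). The transferase-type gene with the highest mean, Nitab4.5_0009332g0010, was not called in any comparison, at 129.4, 152.7 and 164.8 in NC82, 159.7, 186.5 and 143.2 in M21, and 103.1, 148.5 and 118.8 in G27. Nitab4.5_0001864g0090, at 106.9 to 158.7 over the 9 libraries, and Nitab4.5_0001864g0060, at 75.95 to 99.06, were not called either. Nitab4.5_0004294g0060 was the 1 that fell, from 146.6, 154.9 and 154.2 in NC82 to 131.8, 138.7 and 121.1 in M21, with 146.4, 140.8 and 146.9 in G27. Its change of -0.22 in M21 (limma adjusted p = 0.0323) did not pass when NC82 replicate 2 or 3, M21 replicate 1 or 3 or G27 replicate 3 was left out (limma adjusted p = 0.0503 to 0.118). It was also lost in fits with other settings (limma adjusted p = 0.0523 to 0.0699), namely median-ratio scaling, the 2-group fit, the replicate block and without the 3 high-end libraries.

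Genes that share a scaffold number did not always move together. On 8 scaffolds lay 23 of the 71 transferase-type genes. Scaffold 0000008 held 6. Besides Nitab4.5_0000008g0130, its gene Nitab4.5_0000008g0170 rose, from 14.77, 18.46 and 17.13 in NC82 to 33.9, 34.56 and 31.54 in M21 and 25.4, 27.18 and 24.55 in G27. The changes were 0.95 and 0.59 (limma adjusted p = 2.72e-05 and 0.000874). Nitab4.5_0000008g0150 rose from 14.31, 16.06 and 14.08 to 23.08, 21.65 and 23.66 in M21 and 21.25, 22.24 and 21.28 in G27. The lines lay above NC82 and close to each other, with changes of 0.59 and 0.52. Nitab4.5_0000008g0190 rose more in G27 than in M21, from 1.2, 1.19 and 1.74 to 2.84, 2.98 and 3.08 in M21 and 5.38, 5.05 and 5.09 in G27. The lines differed by -0.64, G27 being higher (limma adjusted p = 0.00284). The last 2, Nitab4.5_0000008g0080 at 3.35 to 5.53 and Nitab4.5_0000008g0180 at 1.15 to 2.04 over the 9 libraries, were not called.

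Scaffold 0001864 held 4 transferase-type genes, of which Nitab4.5_0001864g0050 and Nitab4.5_0001864g0080 rose in M21 and the other pair did not pass the test. Scaffold 0009332 held 3. There Nitab4.5_0009332g0020 stood at 31.23, 37.11 and 37.41 in NC82, 45.91, 50.27 and 47.69 in M21, and 31.81, 40.37 and 37.44 in G27. M21 lay above both other groups, which overlapped, with a change of 0.44 (limma adjusted p = 0.00816) in M21 and of 0.05 in G27. On scaffold 0000639 the neighbours went opposite ways. Nitab4.5_0000639g0240 fell from 16.78, 17.71 and 17.03 in NC82 to 8.19, 6.74 and 10.73 in M21 and 10.37, 9.32 and 10.32 in G27. Its changes of -0.95 and -0.72 (limma adjusted p = 0.000346 and 0.00275) were the largest fall of a transferase-type gene in M21 and the next to largest in G27. Nitab4.5_0000639g0200 rose from 3.87, 5.46 and 4.73 to 7.98, 7.16 and 7.04 in M21 and 7.02, 6.27 and 7.78 in G27. Its changes were 0.57 and 0.50 (limma adjusted p = 0.00394 and 0.0121), and the latter was lost without G27 replicate 3 (limma adjusted p = 0.0533) and without the 3 high-end libraries (0.0852). Near-identical copies share reads, in a genome that also holds paired copies from both parental species, and how the authors divided such reads is not given in the sources used here. Values of close neighbours are uncertain to that extent.

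**Figure D4:**
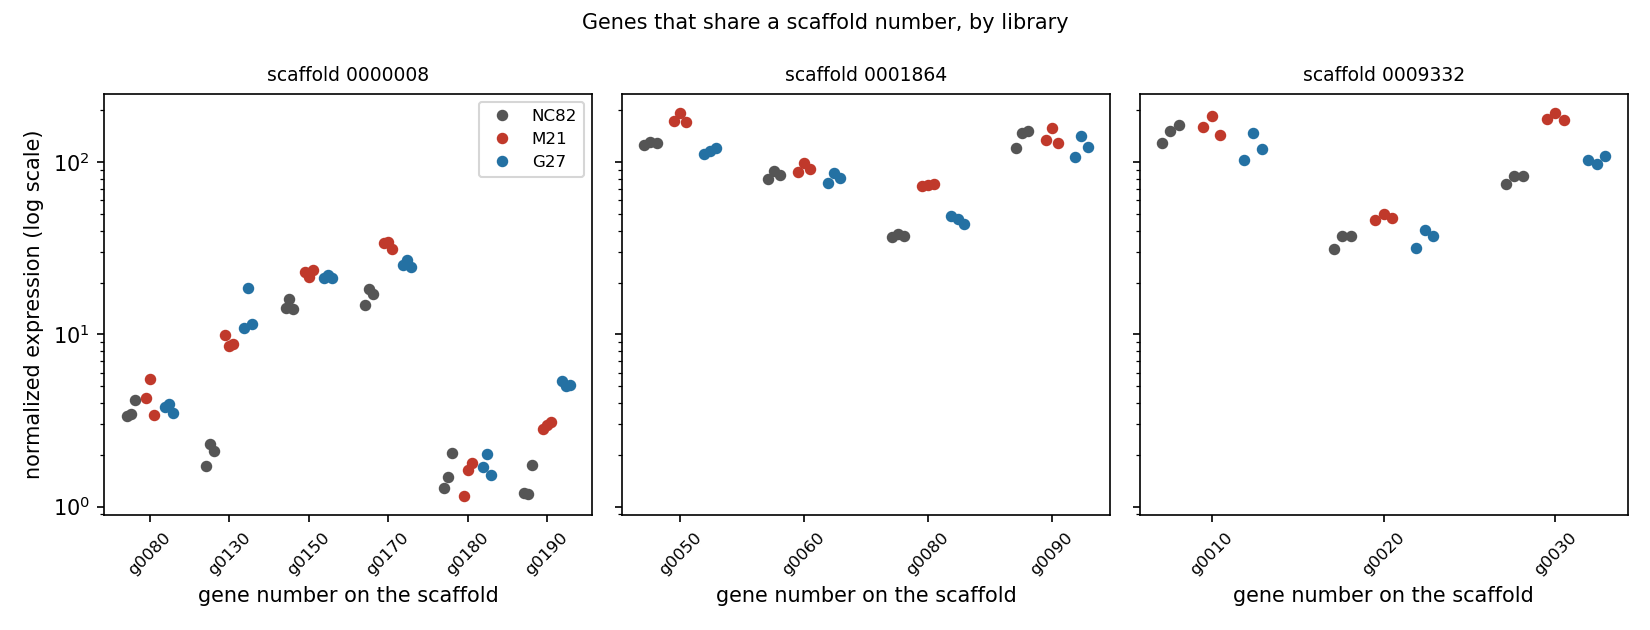
Normalized expression on a log axis of the family's genes on scaffolds 0000008, 0001864 and 0009332, ordered by gene number, with 3 points per genotype for the 3 libraries. On scaffold 0001864 the gene g0080 shows M21 points of 72.36 to 74.82 against NC82 points of 37.02 to 38.09. For g0060 the M21 points and the G27 points each overlap with NC82, while M21 (87.69 to 99.06) lies above G27 (75.95 to 86.05).

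On other scaffolds called and uncalled genes also lay side by side. Next to Nitab4.5_0000652g0050, the C-terminal-domain gene Nitab4.5_0000652g0040 had the largest SE of the 87 genes (0.45 in M21 against NC82), at 1.71, 1.64 and 3.5 in NC82, 6.94, 4.47 and 1.43 in M21, and 7.73, 1.85 and 4.78 in G27. It was not called in any comparison. Both genes of scaffold 0008292 rose in both lines, and Nitab4.5_0008292g0010 stood at 0.44, 0.56 and 0.91 in NC82, 2.25, 2.9 and 1.76 in M21, and 2.39, 2.81 and 1.76 in G27. Its changes were 1.01 and 1.02 (limma adjusted p = 0.00127 and 0.00173), and 1.73 and 1.74 with a pseudocount of 0.1. Both genes of this scaffold were under 1 in every NC82 library and passed the level rule only through M21 and G27, and the rule favours their calls. On scaffold 0008696, Nitab4.5_0008696g0020 rose from 2.36, 2.42 and 1.4 to 6.48, 4.84 and 6.56 in M21 and 6.47, 6.83 and 6.24 in G27. Its neighbour Nitab4.5_0008696g0010, at 1.12 to 2.97 over the 9 libraries, was not called. The genes named here beside the fixed rule for naming were taken for their place on a scaffold, after their values were seen.

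M21 was then set directly against G27. In this comparison 11.9% of all tested genes were called, 5.47% higher in M21 and 6.4% lower. Of the 71 transferase-type genes 12 were higher in M21 and 6 lower, which is 25.4% called. Their median difference was 0.07, against -0.01 over all tested genes. A difference of 1 or more was found for 1 gene, lower in M21, where 0.425% of all tested genes lay as far below. Ranges did not overlap for 31 of the 71, against 28.6% of all tested genes. The count depended on single libraries. It was 11 without M21 replicate 1, 11 without M21 replicate 2, 9 without G27 replicate 3 and 11 without the 3 high-end libraries.

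Besides the abundant genes above, M21 was higher than G27 for Nitab4.5_0007720g0010, which stood at 12.08, 15.06 and 12.48 in NC82, 37.32, 39.48 and 39.28 in M21, and 23.37, 30.77 and 25.16 in G27. It rose by 1.49 in M21 and 0.95 in G27 (limma adjusted p = 6.42e-06 and 0.000163), and the lines differed by 0.54 (limma adjusted p = 0.00881). The last call was lost without the 3 high-end libraries (limma adjusted p = 0.0512). Nitab4.5_0003820g0010 stood at 9.12, 10.71 and 13.09 in NC82, 16.59, 16.99 and 13.41 in M21, and 9.06, 9.73 and 8.97 in G27. M21 lay above G27 by 0.69 (limma adjusted p = 0.00489), while its rise of 0.48 over NC82 (0.0152) was lost without M21 replicate 1 or 2 (limma adjusted p = 0.0548 to 0.0608).

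Calls of other genes between the lines held less well. Nitab4.5_0006988g0040 stood at 2.63, 2.45 and 2.52 in NC82, 4.01, 3.97 and 4.04 in M21, and 1.87, 3.2 and 2.71 in G27. It was higher in M21 than in NC82 by 0.50 (limma adjusted p = 0.013) and than in G27 by 0.50 (0.0262). The latter did not pass when any 1 M21 library, G27 replicate 1 or G27 replicate 3 was left out (limma adjusted p = 0.0525 to 0.0792) and under other settings (0.0543 to 0.12). Lower in M21 than in G27 was Nitab4.5_0000892g0010, which stood at 0, 0.04 and 0.06 in NC82, 1.06, 0.57 and 0.68 in M21, and 1.32, 2.04 and 1.55 in G27. Its rises over NC82 were called (limma adjusted p = 0.00268 and 0.000102), but with NC82 near 0 no fold is given. It passed the level rule only through M21 and G27, and the rule favours these rises. The difference of -0.58 between the lines (limma adjusted p = 0.0248) did not pass when replicate 2 or 3 of either line was left out (limma adjusted p = 0.0604 to 0.0851). With a pseudocount of 0.1 it was -1.02 and was not called, nor was it without the 3 high-end libraries (limma adjusted p = 0.0732 to 0.132).

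The 1 gene called in opposite directions against NC82 was Nitab4.5_0000202g0470. It stood at 19, 22.29 and 21.85 in NC82, 26.69, 29.75 and 23.8 in M21, and 14.47, 18.08 and 15.64 in G27. The 3 groups did not overlap, with NC82 between the lines. It rose by 0.33 in M21 and its change in G27 was -0.37 (limma adjusted p = 0.0431 and 0.0387). The lines differed by 0.70, a difference that follows from choosing the gene for its opposite calls and is given with no test. The M21 call did not pass when any 1 NC82 library, M21 replicate 1, M21 replicate 2 or G27 replicate 3 was left out (limma adjusted p = 0.0604 to 0.133). Nor did it pass with median-ratio scaling or with no filter on low values (limma adjusted p = 0.0712 to 0.102). The G27 call was lost without NC82 replicate 2 or 3, M21 replicate 1 or G27 replicate 1 or 3 (0.0608 to 0.14). It was also lost with no filter on low values (limma adjusted p = 0.0673).

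Of the 71 transferase-type genes, 5 fell in M21 and 7 in G27. In M21, Nitab4.5_0000498g0140, with both domains, stood at 66.88, 74.4 and 73.25 in NC82, 57.11, 57.85 and 54.01 in M21, and 69.79, 75.06 and 73.61 in G27. M21 lay below both other groups, by -0.34 against NC82 and -0.36 against G27 (limma adjusted p = 0.00374 and 0.00569), and both calls were kept in all 15 alternatives. Nitab4.5_0002353g0040 fell from 91.12, 86.01 and 90.21 in NC82 to 76.47, 79.1 and 73.5 in M21. Its change of -0.22 (limma adjusted p = 0.0196) did not pass when NC82 replicate 3, M21 replicate 1 or M21 replicate 3 was left out (0.0662 to 0.0739), nor without the 3 high-end libraries (0.104). Both genes were named after their values were seen.

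Nitab4.5_0012027g0010 stood at 4.14, 3.32 and 4.39 in NC82, 3.23, 3.4 and 3.06 in M21, and 3.02, 1.82 and 0.9 in G27, where the libraries were spread widely. Its change of -0.82 in G27 (limma adjusted p = 0.0256) was lost without NC82 replicate 1 or 3 or G27 replicate 2 or 3 (0.051 to 0.0873), and was -0.55 without G27 replicate 3. Nitab4.5_0004055g0020 stood at 31.76, 32.06 and 31.45 in NC82, 32.47, 31.55 and 28.51 in M21, and 23.04, 27.35 and 20.75 in G27. Only G27 lay lower, by -0.42 (limma adjusted p = 0.0133), a call lost without NC82 replicate 2 or G27 replicate 3 (0.0502 to 0.0526) and without the 3 high-end libraries (0.0643). Nitab4.5_0000914g0290, named after its values were seen, stood at 25.07, 25.74 and 27.11 in NC82, 23.03, 23.85 and 21.73 in M21, and 19.92, 19.97 and 18.63 in G27. Its change of -0.40 in G27 (limma adjusted p = 0.00248) was kept in all 15 alternatives, and it was not called in M21. Nitab4.5_0002470g0030, with only the C-terminal domain, was 1 of 2 transferase-type genes that fell in both lines, as 4.02% of all tested genes did. It went from 80.85, 89.38 and 97.46 to 67.63, 71.46 and 64.86 in M21 and 64.91, 69.85 and 72.43 in G27. Its changes were -0.38 and -0.36 (limma adjusted p = 0.00527 and 0.0112), and the latter was lost without NC82 replicate 3 (0.0501). The other was Nitab4.5_0000639g0240, given above.

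Some genes of the family were not called at all. Of the 87 genes 33 were called in none of the 3 comparisons, 26 of them transferase-type genes. How many of all tested genes were called in none was not counted. Called were 24.3% of all tested genes in M21 against NC82, 13.9% in G27 against NC82 and 11.9% in M21 against G27. The steadiest of those with a mean of 10 or more was Nitab4.5_0001831g0050, with both domains, which ran from 58.91 to 65.26 over the 9 libraries, a ratio of 1.11 between the highest and the lowest.

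The zeta genes, which stand for tyrosine breakdown, rose slightly in M21. All 3 were called up in M21 and 0 in G27, where 0 also passed at an unadjusted limma p under 0.05. Of all tested genes, 13% were called up in M21 and 7.87% in G27. Nitab4.5_0004176g0020 stood at 23, 23.66 and 22.9 in NC82, 25.99, 28.67 and 28.16 in M21, and 22.81, 23.89 and 20.49 in G27. Nitab4.5_0001085g0020 stood at 15.64, 16.47 and 16.86 in NC82, 22.31, 20.96 and 21.93 in M21, and 17.09, 21.66 and 16.75 in G27. Every M21 library lay above every NC82 library for both. Nitab4.5_0005372g0090 was lower, at 3.52 to 4.51 in NC82, 4.63 to 5.31 in M21 and 4.35 to 4.71 in G27. The M21 changes of these 3 genes, in the same order, were 0.24, 0.39 and 0.32 (limma adjusted p = 0.0366, 0.011 and 0.0338). The first did not pass when any 1 NC82 library, M21 replicate 2 or M21 replicate 3 was left out (limma adjusted p = 0.0729 to 0.105), and the last when replicate 2 or 3 of NC82 or replicate 1 or 3 of M21 was (0.104 to 0.131). The first also did not pass with median-ratio scaling or without the 3 high-end libraries (0.0708 to 0.153), and the last with no filter on low values or in the 2-group fit (0.055 to 0.0557). The call of Nitab4.5_0001085g0020 was lost only without the 3 high-end libraries (0.0637).

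The elongation factor 1B genes fell in M21. Of the 9, 8 fell and 0 rose in M21, 3 fell and 0 rose in G27, and 7 were lower and 0 higher in M21 than in G27. Of all tested genes, 11.3%, 6.05% and 6.4% were called down in these comparisons, in the same order. At an unadjusted limma p under 0.05, 0 of the 9 were higher in any of these comparisons. By description 4 were gamma chains, 4 beta or delta chains and 1 named no chain. Their summed level was 822.7, 859.9 and 899.5 in NC82, 578.4, 576.1 and 571.2 in M21, and 705.8, 835.9 and 716.4 in G27. The M21 libraries lay below all others and close together, and G27 replicate 2 was the highest G27 library. The median log2 change was -0.50 in M21.

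The most abundant of the 87 genes was the elongation factor 1B gene Nitab4.5_0002567g0110, at 221.1, 233.4 and 237.0 in NC82, 161.0, 158.9 and 166.5 in M21, and 201.6, 236.2 and 199.0 in G27. It fell by -0.50 (SE 0.07) in M21 against NC82 (limma adjusted p = 0.000632) and its difference from G27 was -0.38 (limma adjusted p = 0.00771). Nitab4.5_0002416g0070 was close to it, at 208.4, 212.4 and 219.6 in NC82, 159.1, 155.5 and 153.9 in M21, and 183.4, 225.6 and 191.5 in G27. Its changes were -0.45 against NC82 and -0.35 against G27 (limma adjusted p = 0.00172 and 0.0145). Nitab4.5_0001797g0010 stood at 74.33, 72.16 and 77.06 in NC82, 51.38, 54.25 and 51.88 in M21, and 68.26, 82.87 and 72.07 in G27. M21 was below both other groups, by -0.50 and -0.49 (limma adjusted p = 0.000881 and 0.00263). Nitab4.5_0002041g0080 stood at 68.9, 72.53 and 75.49 in NC82, 42.78, 47.55 and 39.88 in M21, and 59.3, 61.26 and 60.05 in G27. Its fall of -0.73 in M21 (limma adjusted p = 5.94e-05) was larger than its change of -0.26 in G27 (0.0399), with a difference between the lines of -0.47 (0.00282). The G27 call was lost with the replicate block (0.052) and without NC82 replicate 2 or 3, M21 replicate 1 or any 1 G27 library (0.0662 to 0.141).

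A pair of elongation factor 1B genes on scaffold 0001799 fell in both lines and furthest. Nitab4.5_0001799g0120 stood at 68.61, 69.9 and 74.63 in NC82, 27.67, 25.43 and 28.45 in M21, and 32.49, 39.07 and 32.64 in G27. Nitab4.5_0001799g0090 stood at 49.03, 55.94 and 61.85 in NC82, 22.49, 22.97 and 22.65 in M21, and 28.95, 33.18 and 29.52 in G27. For both genes the 3 groups did not overlap, with M21 lowest. The changes of the former were -1.35 in M21 and -1.02 in G27 (limma adjusted p = 2.65e-06 and 1.92e-05), and those of the latter -1.25 and -0.84 (5.62e-06 and 9.92e-05). They were lower in M21 than in G27 by -0.34 and -0.41 (limma adjusted p = 0.0252 and 0.0133). The former difference did not pass when M21 replicate 1, M21 replicate 2 or G27 replicate 2 was left out (limma adjusted p = 0.0649 to 0.0855), and the latter when M21 replicate 1 was (0.0521).

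**Figure D5:**
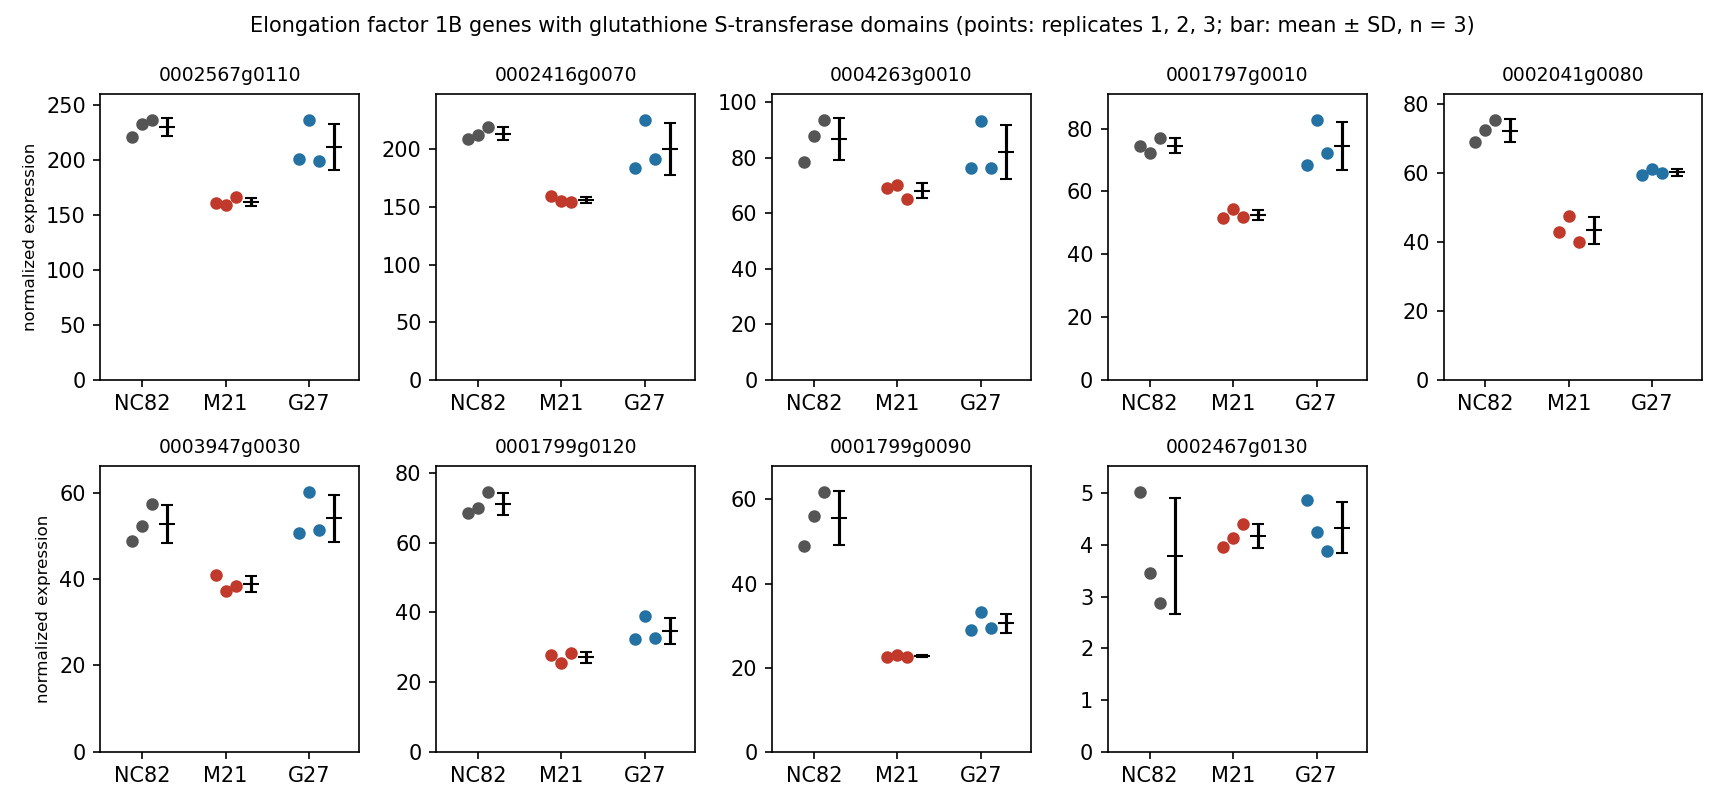
Normalized expression (y axis, starting at 0 in each panel) of the 9 elongation factor 1B genes by genotype, ordered by mean. Colored points are replicates 1, 2 and 3 from left to right and the bar is the mean ± SD of 3 libraries. In 8 panels all M21 points lie below all NC82 points, and Nitab4.5_0002467g0130, at 2.88 to 5.03, is the exception.

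The other descriptions outside the transferase type changed little. None of the 3 tRNA synthetases was called in any comparison, and 0 passed at an unadjusted limma p under 0.05. The 2 genes with a glutaredoxin domain were not called either, although Nitab4.5_0006505g0020 was close in M21 (change -0.21, limma adjusted p = 0.0508), at 44.9, 47.69 and 49.34 in NC82 and 40.72, 38.81 and 42.76 in M21. It was named after its values were seen. Of the 2 genes with a tRNA-binding domain, Nitab4.5_0000094g0120 was called in 1 comparison, lower in M21 (14.05, 15.53 and 14.38) than in G27 (16.67, 18.13 and 18.19). The difference of -0.25 (limma adjusted p = 0.0419) did not pass when NC82 replicate 2 or 3, M21 replicate 1 or 3 or G27 replicate 2 or 3 was left out (0.0607 to 0.153). Nor did it pass with median-ratio scaling, in the 2-group fit, with the replicate block or without the 3 high-end libraries (0.0533 to 0.0946). The gene was chosen after its value was seen.

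Other genes of glutathione use and detoxification were counted from their descriptions, without the 87 genes. Of all tested genes, 13% rose and 11.3% fell in M21, and 7.87% rose and 6.05% fell in G27. Of 4 genes of glutathione synthesis and 4 glutathione reductases, which restore its reduced form, limma called 0 in any comparison. At an unadjusted p under 0.05, 1 synthesis gene was higher in M21 than in G27 and 0 of the rest passed. Of 13 glutathione peroxidases, which use glutathione or thioredoxin to reduce peroxides, 4 rose and 1 fell in M21, while 0 rose (1 at an unadjusted limma p under 0.05) and 1 fell in G27. The fall in G27 was lost without NC82 replicate 2 or 3, M21 replicate 1 or 3 or G27 replicate 1. Of 62 glutaredoxins, which use glutathione to reduce disulfides, 9 rose and 6 fell in M21, and 3 rose and 8 fell in G27. Called were thus 24.2% in M21 and 17.7% in G27, against 24.3% and 13.9% of all tested genes. Without NC82 replicate 2 the M21 counts were 5 and 4. Of 4 gamma-glutamyltranspeptidases, which break down glutathione and its conjugates, 3 rose and 1 fell in M21, and with replicate 1 or 3 of NC82 or of M21 left out only 1 rose and 1 fell.

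Glyoxalases remove methylglyoxal with glutathione. The word was matched anywhere in a description, so the 30 genes that held it need not all be such enzymes. Of these 30, 2 rose and 14 fell in M21, and 0 rose and 4 fell in G27. In G27, 2 were called without NC82 replicate 2 or G27 replicate 3, and 7 without G27 replicate 2. At an unadjusted limma p under 0.05, 2 of the 30 were higher in G27. Of 194 cytochrome P450 genes, many of which make the oxidised substrates that transferases conjugate, 60 rose and 27 fell in M21, and 34 rose and 38 fell in G27. Of 111 UDP-glucosyltransferases, which conjugate sugars, 25 rose and 16 fell in M21, and 16 rose and 18 fell in G27. The latter counts were 15 and 7 without NC82 replicate 2. Of 134 ABC transporters, some of which carry glutathione conjugates into the vacuole, 19 rose and 18 fell in M21, and 17 rose and 14 fell in G27. The M21 counts come to 27.6% called, near the 24.3% of all tested genes. Of 62 multi antimicrobial extrusion proteins, 7 rose and 12 fell in M21, and 5 rose and 11 fell in G27.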

How the data were processed

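The authors deposited 1 normalized expression signal for each gene in each library. HISAT2, RSEM and StringTie are named in the submitters' processing notes. The roles of these tools, the unit (TPM or FPKM), build, annotation and strand setting are not stated there or in the labels. Without a stated strand setting, overlapping antisense genes cannot be told apart. Library sums were 771390 to 790816, and estimated depths relative to NC82 replicate 1 were 0.81 to 1.19. Libraries were grouped by their genotype labels. Values were analysed as log2(value + 1), after keeping 33188 genes at 1 or more in at least 3 libraries. limma 3.58.1 (R 4.3.3, trended variance) was fitted to all 9 libraries, with Benjamini-Hochberg adjustment and a threshold of 0.05, and was tested on simulated data. Tables and figures used Python 3.11.15, pandas 2.3.3, numpy 2.4.6 and matplotlib 3.10.9. No pair of libraries of the same genotype looked like a duplicate by its share of equal values, and pairs across genotypes were not compared in this way. The genes and lists were chosen with earlier results of these data known, and the transferase type was set after the descriptions were seen. Named genes were, per comparison, the 7 largest called rises and 5 largest called falls, the 8 highest means, and genes called in opposite directions. The authors' group means were not used. Alternatives were another pseudocount, no filter, median-ratio scaling, 2-group fits, a replicate block, and leaving out libraries. No sequences were used.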

Additional observations from a re-analysis of the deposited data

Results flagged for a closer look

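Nitab4.5_0000202g0470, which has both transferase domains, stood out because it was called up in M21 and down in G27 against the same NC82 libraries. Its values were 23.8 to 29.75 in M21 and 14.47 to 18.08 in G27, a difference of 0.70 on the log2 scale. Because the gene was picked for its opposite calls, this difference follows from the choice and is not a separate test. Each of the calls against NC82 was lost in some alternatives.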

How the results depend on the processing

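Across 15 alternatives, 37 of the 46 calls in M21 against NC82, 21 of 34 in G27 against NC82 and 13 of 26 in M21 against G27 were kept in all, and 0 turned direction. Leaving out 1 library at a time gave 39 to 47, 26 to 33 and 16 to 27 calls among the 87 genes, and 32 to 38, 24 to 30 and 9 to 19 among the 71 transferase-type genes. For M21 against G27, 2301 to 4185 of all genes were called (main 3941) and 116 to 203 of the related lists (main 194), with the lowest of both without M21 replicate 1. Besides the lists described above, the related lists held thioredoxin, ascorbate or haem peroxidase, aldo/keto reductase, catalase, superoxide dismutase, NADH:flavin oxidoreductase and phytochelatin genes. Among the 87 genes the count was 16 without M21 replicate 1 and also without G27 replicate 3. Among the 71 it was 11 without the 3 high-end libraries. With median-ratio scaling the direction with most calls over all genes turned (3992 up and 4399 down in M21, 2355 up and 2523 down in G27), but the 87 genes stayed at 31 up and 13 down in M21 and 22 up and 10 down in G27. Between the lines they came to 12 higher and 12 lower in M21. Replicate numbers did not pair the libraries: correlations of deviations for the same number ran from -0.21 to 0.34. With a replicate block 45, 31 and 26 of the 87 genes and 37, 29 and 19 of the 71 were called. The causes were not tested. Without read counts, depth limits could not be set.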
